A study of Mus musculus with 6 samples.

Results

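Hpf1 and 4 partner genes of the ADP-ribosylation pathway (Parp1, Parp2, Parp3 and Parg) held 44 of the 45595 splicing events measured in cells of the mouse neuroblastoma line Neuro-2a (N2a). The members were every event whose gene symbol was Hpf1, Parp1, Parp2, Parp3, Parg or Adprhl2. Hpf1 had 28 events, Parp3 7, Parp1 4, Parg 3 and Parp2 2, while Adprhl2 had none. Hpf1 was selected on the very contrast described here, because in the authors' deposited table exons of the gene were called in opposite directions; its values are therefore a description, with no test, and its partners were added for their function.

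The labels describe 3 libraries of wild-type N2a cells and 3 libraries of N2a cells in which the RNA-binding protein hnRNP DL was knocked out (hnRNP DL-/-), all made from total RNA. The labels give no kind of knockout and no number of clones, and they do not say that the libraries of a group were separate cultures, so every p-value measures only the spread between these libraries. The deposited table holds the libraries as a first and a second set of 3. No header or label ties either set to a genotype, so they are called set 1 and set 2, every difference is set 1 minus set 2, and no genotype is attached to any direction.

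ADP-ribosylation is the attachment of ADP-ribose, taken from NAD+, to proteins, and it is among the earliest responses to a broken DNA strand. PARP1 and PARP2 detect the break; HPF1 binds them, completes their active site and directs the modification to serine residues. PARP3 attaches ADP-ribose units without building chains, PARG cuts the chains, and ADPRHL2 (ARH3) removes the last unit from serine. In neurons the balance of these writers and erasers is of interest because excessive PARP1 activity consumes NAD+ and can end in a form of cell death called parthanatos.

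The junction counts of a library, added up over the whole table, came to between 13501749 and 18185394, with some reads counted in more than 1 event. All 44 member events had a mean of 20 or more reads per library. Of 13 markers of neuroblastoma cells and neurons, 6 could be measured by their junctions (Chga, Dbh, Gap43, Gata2, Isl1 and Ncam1); their summed level was 441 to 797 CPM (counts per 1000000 of the summed reads of the most-read event of every gene) in set 1 and 694 to 849 in set 2. None of 5 fibroblast markers had an event, and no listed marker of immune cells, glia or endothelium had enough junction reads to be counted. Only genes with a splicing event could be measured, so a marker that is missing does not show that its cell type is absent. In bulk RNA, fewer cells of a type and less RNA per cell cannot be told apart.

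Hpf1 (ENSMUSG00000038005) lies on the plus strand of chromosome 8 at 60890418 to 60908671 of GRCm38, the assembly behind build mm10. Its coding transcript Hpf1-201 in GENCODE vM21 has 8 exons and 1038 coding bases, or 346 codons; exon 1 holds 48 of the coding bases. Exon 2 is 160 bases (60893701 to 60893860), exon 3 is 190 (60895461 to 60895650), exon 4 is 99 (60896738 to 60896836), exon 5 is 151 (60900084 to 60900234) and exon 6 is 88 (60904000 to 60904087). All of them are coding in Hpf1-201. Exon 4 is the only one of these 5 whose length is a multiple of 3. Leaving out any other by itself shifts the reading frame.

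The joins of exon 1 that the results turn on are shown from the start codon in exon 1 to the end of the next exon, read from the GENCODE vM21 transcripts (GRCm38, plus strand). Exon 1 to exon 2 is the full-length order (chr8:60890489-60893860), exon 1 to exon 4 the junction that differed between the sets (chr8:60890489-60896836), and exon 1 to exon 6 the skipping junction with the most reads (chr8:60890489-60904087). Capitals mark the first stop codon in frame with that start, where the stretch has one.
Hpf1 exon 1 joined to exon 2: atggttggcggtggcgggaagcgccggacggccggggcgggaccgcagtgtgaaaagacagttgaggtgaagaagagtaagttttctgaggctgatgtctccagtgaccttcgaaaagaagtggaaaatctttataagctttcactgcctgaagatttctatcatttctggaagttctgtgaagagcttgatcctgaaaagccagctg
Hpf1 exon 1 joined to exon 4: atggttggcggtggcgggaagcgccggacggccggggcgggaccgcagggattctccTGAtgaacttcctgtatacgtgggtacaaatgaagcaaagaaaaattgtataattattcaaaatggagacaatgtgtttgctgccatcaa
Hpf1 exon 1 joined to exon 6: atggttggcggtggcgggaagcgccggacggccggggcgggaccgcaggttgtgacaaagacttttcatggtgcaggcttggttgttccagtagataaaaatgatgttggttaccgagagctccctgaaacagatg

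Joining exon 1 to exon 4 leaves out exons 2 and 3, 350 bases that are not a multiple of 3. The reading frame then runs for 19 codons and meets TGA near the start of exon 4, 499 bases before the last exon junction. As background, a stop codon far upstream of the last junction is the usual feature of transcripts degraded by nonsense-mediated decay; the decay itself was not measured here. Joining exon 1 to exon 6 leaves out 600 bases, keeps the frame and leaves 146 codons ending at the stop codon in exon 8. Neither join is present in a GENCODE vM21 transcript of Hpf1.

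The 18 skipped-exon events of Hpf1 rest on 11 distinct skipping junctions, since events of different exons can share one. Of these junctions 8 are in no GENCODE vM21 transcript. The other 3 are annotated: exon 1 to exon 7 in Hpf1-204, exon 2 to exon 4 in Hpf1-205 and Hpf1-203, and exon 4 to exon 6 in Hpf1-203. Of the 11, 5 join exon 1 to a later exon than exon 2. Over the 6 libraries the most read were exon 1 to exon 6 with 629 reads, exon 2 to exon 4 with 378, exon 1 to exon 5 with 319, exon 4 to exon 6 with 148 and exon 1 to exon 4 with 129. All of these were read in both sets.

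**Figure D1:**
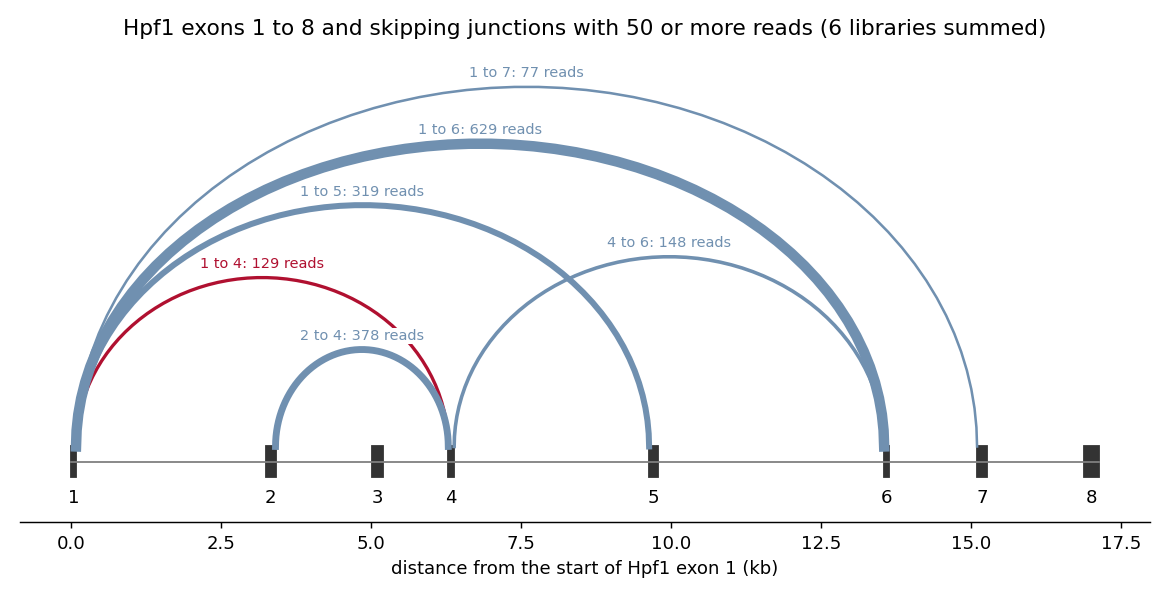
Exons of Hpf1-201 drawn to scale (black boxes, numbered) along the distance in kb from the start of exon 1, with an arc for each skipping junction that had 50 or more reads over the 6 libraries; line width follows the number of reads, and arc height has no unit. The exon 1 to exon 4 junction (red, 129 reads) is thinner than the exon 1 to exon 5 (319 reads) and exon 1 to exon 6 (629 reads) junctions that leave the same exon.

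The exon 1 to exon 4 junction had 37, 44 and 30 reads in the libraries of set 1 and 8, 0 and 10 in those of set 2. RPM is reads per 1000000 junction counts of the library, summed over all events, with some reads counted in more than 1 event. On this junction it was 2.21, 3.13 and 2.21 in set 1 and 0.44, 0 and 0.741 in set 2. Every library of set 1 lay above every library of set 2, and the library with 0 reads allows up to 0.211 RPM, for counting error only. The means were 2.52 ± 0.532 and 0.394 ± 0.372 (SD, 3 libraries each), a ratio of 6.4. The ratio was 11.5 without the third library of set 2 and 4.27 without the second, which had 0 reads. Per 1000 reads of the most-read Hpf1 event the values were 31.4, 44.3 and 30.3 against 6.66, 0 and 10.5, so the order of the libraries' sets was the same when scaled to the gene.

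The other junctions that leave exon 1 overlapped between the sets. Exon 1 to exon 5 had 70, 47 and 39 reads in set 1 and 72, 44 and 47 in set 2. Exon 1 to exon 6 had 136, 87 and 88 reads in set 1 and 139, 80 and 99 in set 2. Exon 1 to exon 7 had 7, 15 and 9 reads against 18, 16 and 12, with means of 0.717 RPM in set 1 and 1.0 in set 2. Exon 1 to exon 3, which leaves out exon 2 alone, had 3, 4 and 0 reads in set 1 and 0, 2 and 0 in set 2. No test was run on these junctions, and at this depth overlapping ranges do not show equal use.

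Junctions that start at exon 2 or exon 4 overlapped as well. The annotated exon 2 to exon 4 junction, which leaves out exon 3 alone and meets TAA in exon 4, had 44, 75 and 52 reads in set 1 and 77, 77 and 53 in set 2. Exon 4 to exon 6 had 39, 26 and 16 reads against 38, 13 and 16. Exon 4 to exon 7 had 6, 9 and 1 against 4, 3 and 0. The remaining junctions (exon 2 to exon 6, exon 3 to exon 5 and exon 5 to exon 7) had 6, 3 and 5 reads over all 6 libraries. Of the 11 junctions, exon 1 to exon 4 was the only one whose sets did not overlap.

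**Figure D2:**
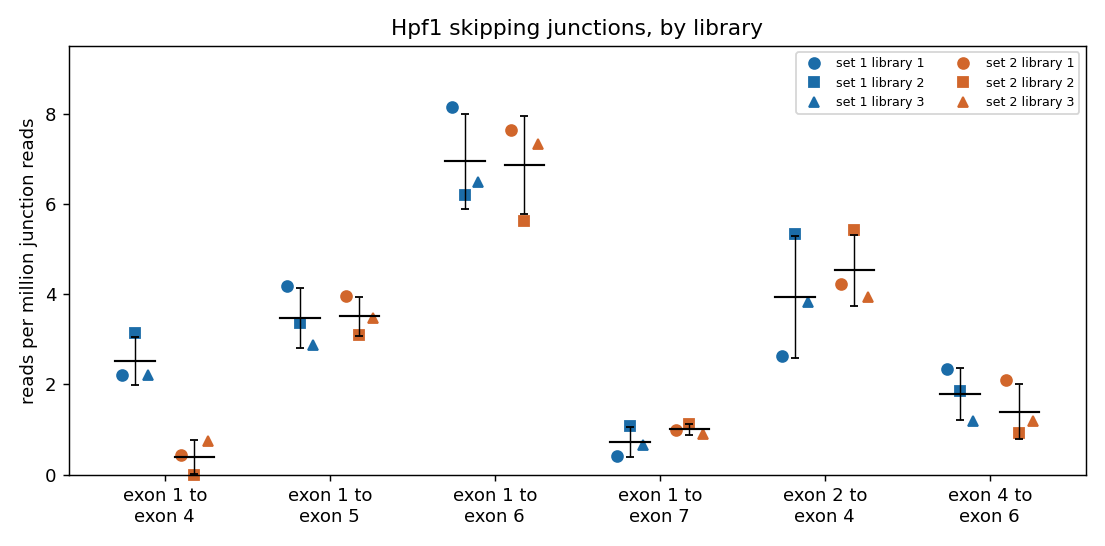
RPM, reads per 1000000 junction counts summed over all events (linear axis), on the 6 Hpf1 skipping junctions with 50 or more reads. Each library has a point (set 1 blue, set 2 orange), with the mean of each set as a horizontal line and the SD as the error bar. On exon 1 to exon 4 the libraries of set 1 stand at 2.21 to 3.13 and those of set 2 at 0 to 0.741, while on the other junctions the sets overlap.

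These reads enter several events. The inclusion level of an event is the length-corrected share of its junction reads that include the exon, from 0 to 1. For exon 2 between exons 1 and 4 the level was 0.849, 0.855 and 0.894 in set 1 and 0.97, 1.0 and 0.96 in set 2. The means were 0.866 and 0.977, a difference of −0.111. For exon 3 between the same exons it was 0.86, 0.796 and 0.845 against 0.965, 1.0 and 0.935. The means were 0.834 and 0.967, a difference of −0.133. Both exons were lower in every library of set 1, and both events count the same 129 skipping reads, so they are a single observation seen from 2 exons. With no correction for form length the differences were smaller, −0.06 for exon 2 and −0.074 for exon 3.

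Exon 4 between exons 1 and 7 went the other way. Its level was 0.463, 0.555 and 0.401 in set 1 and 0.167, 0.036 and 0.131 in set 2, with means of 0.473 and 0.112 and a difference of 0.361. Here the exon 1 to exon 4 junction is on the inclusion side, and exon 1 to exon 7 is the skipping form. The event is thinly read, with a mean of 23 reads per library: inclusion reads were 10, 31 and 10 in set 1 and 6, 1 and 3 in set 2, and skipping reads 7, 15 and 9 against 18, 16 and 12. In the first library of set 1, its 10 inclusion reads are fewer than the 37 on exon 1 to exon 4 in the exon 2 event. Each event therefore counts its own subset of reads, and how reads that cross several junctions were allotted is not given in the sources used here.

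Sorting the 28 Hpf1 events by where the exon 1 to exon 4 junction enters them gave 3 groups. In 4 events it belongs to the skipping form or to the second of a pair of mutually exclusive exons; 2 of them did not overlap between the sets, and both were lower in set 1. In 5 events it belongs to the inclusion form or to the first exon of a pair; 3 of them did not overlap, and all of these were higher in set 1. In the other 19 events the junction is in neither form. There the sets overlapped in every event and the differences ran from −0.026 to 0.072. Over all events with a level in every library, the sets did not overlap in 5.83%, and in 4.82% of skipped exons; since Hpf1 was chosen on this contrast, nothing is read from its count against that share.

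Below the size of the 3 called events stood exon 4 between exons 1 and 6, with levels of 0.151, 0.238 and 0.131 in set 1 and 0.122, 0.077 and 0.089 in set 2, a difference of 0.077 without overlap. Exon 4 or exon 6 between exons 1 and 7, a mutually exclusive pair, stood at 0.02, 0.085 and 0.027 against 0.012, 0.003 and 0.008, a difference of 0.037 without overlap. Its level is the share of exon 4: the reads listed for its first exon are those listed as inclusion of exon 4 between exons 1 and 7. Exon 4 between exons 1 and 5 held far more reads, a mean of 388 per library. Its levels of 0.792, 0.814 and 0.817 overlapped with 0.772, 0.799 and 0.756, a difference of 0.032. Exon 4 between exons 3 and 5, its place in the full-length order, was included at 1.0 in every library but 1, which stood at 0.992.

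In their other contexts the levels of exons 2 and 3 overlapped between the sets. Exon 2 between exons 1 and 3 was included at 0.991 or more in all 6 libraries. Exon 3 between exons 2 and 4 stood at 0.913, 0.836 and 0.888 in set 1 and 0.863, 0.842 and 0.867 in set 2, also overlapping. Exon 5 had its widest difference between exons 1 and 7, at 0.833, 0.615 and 0.69 against 0.667, 0.579 and 0.676, a difference of 0.072 that overlapped. Exon 6 between exons 5 and 7 was included at 0.994 or more in every library.

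**Figure D3:**
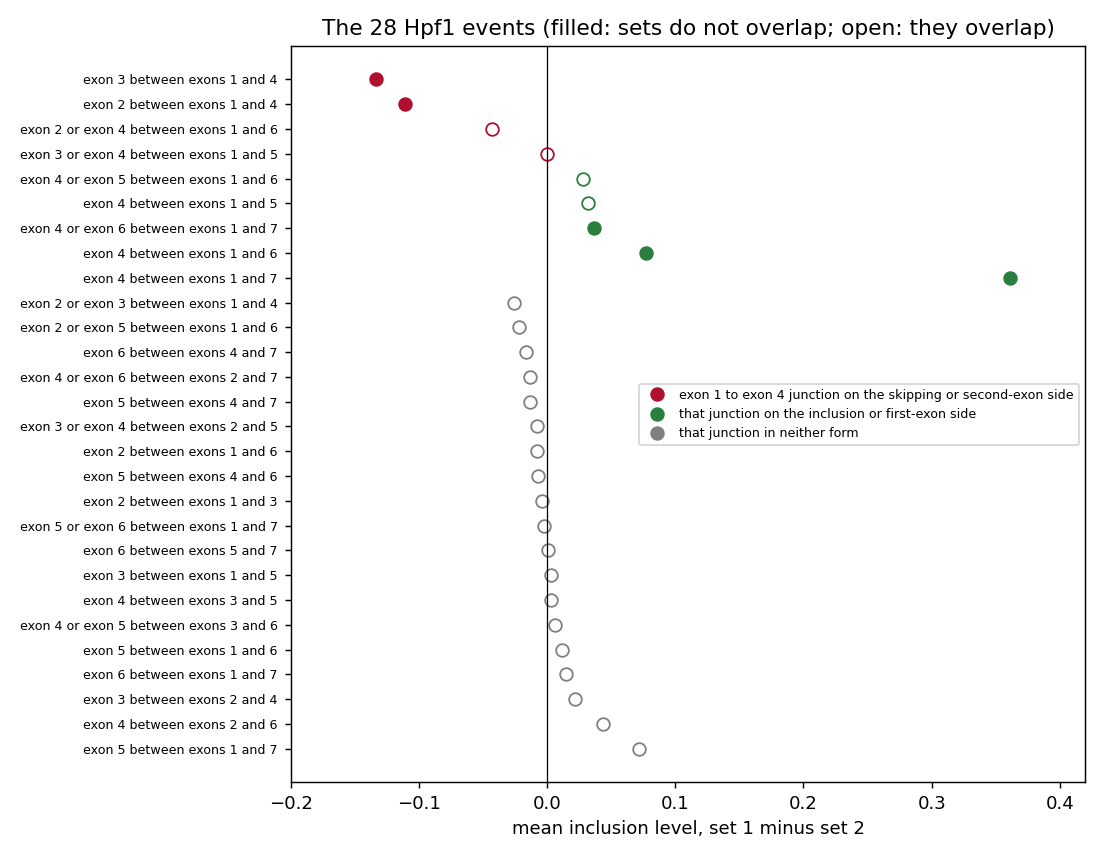
Difference of the mean inclusion level, set 1 minus set 2, for each of the 28 Hpf1 events, coloured by the side on which the exon 1 to exon 4 junction enters the event; filled points are events whose sets do not overlap. The filled points are 2 red ones at −0.133 and −0.111 and 3 green ones from 0.037 to 0.361, and the 19 grey points lie between −0.026 and 0.072.

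The values that chose Hpf1 were the authors' calls. In the authors' deposited table, an adjusted p under 0.05 with a change of 0.10 or more was reached by 3 Hpf1 events: exon 2 between exons 1 and 4 (adjusted p = 3.67e-12), exon 3 between the same exons (3.03e-11) and exon 4 between exons 1 and 7 (0.000196). In the authors' deposited table as a whole 294 events met this rule, 0.645% of all events and 0.677% of skipped exons, with 0.357% of events higher in set 1 and 0.287% lower; 2.63% of genes had such an event. The exon 2 event lies just inside the size limit at −0.111. Below that limit, the authors' deposited table gave exon 4 between exons 1 and 6 a change of 0.077, which also missed the limit on p (adjusted p = 0.106). It gave the pair of exons 4 and 6 a change of 0.037 (adjusted p = 0.000244). With that pair, 4 Hpf1 events had an adjusted p under 0.05 in the authors' deposited table, against 1.13% of all events.

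Reads over the gene as a whole differed little between the sets. The most-read Hpf1 event had 234, 236 and 244 CPM in set 1 and 220, 231 and 234 in set 2. The ranges met at 234, and the log2 ratio was 0.06 ± 0.09 (SE, 3 libraries a set, on the log2(CPM + 1) scale). Such a total follows the expression and the splicing of that event together.

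The partner genes gave 16 events, and none of them was called. The quasi-binomial test over the whole table, which compares inclusion and skipping reads between the sets, called 0.0279% of 39419 events, and its smallest adjusted p for a partner gene was 0.746. Limma on logit inclusion levels gave a smallest adjusted p of 0.791 for them, and with either tool 0 of the 16 had an unadjusted p under 0.05. The sets did not overlap in 2 of the 16, against 5.83% of all events. The authors' deposited table called 0 of the 16 as well.

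PARP1, the main break sensor and HPF1's chief partner, is encoded by Parp1 on chromosome 1 (180568924 to 180601254). Its 4 events are coding exons of 166, 116, 133 and 62 bases, included at 0.995 or more in every library. The 133-base exon (180588650 to 180588782) was the most read, with 4 skipping reads among 5506 over the 6 libraries. Skipping of the 62-base exon (180599593 to 180599654) was read 3 times, each time in a library of set 2, so its levels of 1.0, 1.0 and 1.0 against 0.998, 0.998 and 0.998 do not overlap although the difference is 0.002. The junction total of Parp1 was 209, 209 and 229 CPM in set 1 and 210, 169 and 191 in set 2. These ranges overlap, and the log2 ratio of 0.19 ± 0.11 (SE) did not pass limma (adjusted p = 0.667), which called 1.06% of gene totals.

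PARP2, the second HPF1-dependent enzyme, is encoded by Parp2 on chromosome 14 (50807841 to 50821301). Its coding exons of 76 bases (50815352 to 50815427) and 125 bases (50820795 to 50820919) were each skipped in 2 reads over the 6 libraries. Both skipping reads of an exon fell in 1 library: the 76-base exon stood at 0.978 in the first library of set 2, the 125-base exon at 0.972 in the first library of set 1, and every other level was 1.0. The junction total was 25.8, 23.3 and 25.3 CPM in set 1 and 30.7, 33.9 and 28.9 in set 2. All of set 1 lay below set 2; the sets did not overlap in the totals of 14.1% of all genes. The log2 ratio of −0.32 ± 0.16 (SE) did not pass limma (adjusted p = 0.593).

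Parp3 (chromosome 9, 106470322 to 106476949, minus strand) was the partner with the most varied splicing and the fewest reads. Its 161-base intron (106473520 to 106473680) was retained at levels of 0.322, 0.315 and 0.28 in set 1 and 0.391, 0.34 and 0.55 in set 2. The sets did not overlap, as for 1.05% of events when a change of 0.10 or more and a mean of 20 reads are also asked. The means were 0.306 ± 0.0225 and 0.427 ± 0.109 (SD), a difference of −0.122. It did not pass the quasi-binomial test (adjusted p = 0.746), nor was it called in the authors' deposited table (adjusted p = 0.637). Without the third library of set 2 the difference was −0.06.

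The neighbouring Parp3 intron was counted with either of its 3′ ends. With the shorter form of the next exon it is 159 bases (106474521 to 106474679), retained at 0.385, 0.182 and 0.395 in set 1 and 0.315, 0.293 and 0.29 in set 2. With an exon lengthened at its 3′ splice site by 15 bases (106474521 to 106474535) it is 144 bases, at 0.718, 0.55 and 1.0 against 0.728, 0.626 and 0.697. The longer exon was used at 0.186, 0.145 and 0.066 in set 1 and 0.18, 0.221 and 0.143 in set 2, all overlapping. The extension keeps the reading frame and belongs to the coding transcript Parp3-202; it is shown because it is all that this choice adds to the mRNA, and its last 2 bases are the AG that ends the intron in the shorter form. No base is marked.
Parp3 15-base extension, chr9:106474521-106474535, minus strand: gccttatctccccag

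The Parp3 coding exon of 178 bases (106473029 to 106473206) stood at 0.946, 0.913 and 1.0 in set 1 and 0.877, 0.794 and 0.917 in set 2. It had the smallest p of the Parp3 events in the authors' deposited table (unadjusted p = 0.00793, adjusted p = 0.254), and the sets overlapped. The quasi-binomial adjusted p was 0.746. The 153-base exon (106473681 to 106473833) stood at 1.0, 0.844 and 1.0 against 1.0, 1.0 and 0.727, and the 314-base form that joins it to the retained intron at 1.0, 0.808 and 1.0 against 1.0, 1.0 and 0.739. Both events had 8 skipping reads in all. The junction total of Parp3 was 7.93, 14 and 6.64 CPM against 8.23, 14 and 4.69, a spread within each set that exceeded the log2 ratio of 0.12 ± 0.36 (SE; limma adjusted p = 0.972).

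Parg, which encodes the hydrolase that cuts poly(ADP-ribose), lies on chromosome 14 at 32201949 to 32297550. Its 56-base exon (32217383 to 32217438) is annotated in a transcript of the nonsense-mediated decay class. It was almost always left out, with 5 inclusion reads among 476 over the 6 libraries and levels of 0, 0.023 and 0 in set 1 and 0.019, 0.009 and 0 in set 2. The exon is shown because its length is not a multiple of 3 and it belongs to no coding transcript.
Parg 56-base exon, chr14:32217383-32217438, plus strand: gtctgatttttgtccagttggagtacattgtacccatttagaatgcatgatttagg

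The other Parg exons were almost always included. The 79-base exon (32271630 to 32271708) stood at 1.0, 0.943 and 1.0 in set 1 and 1.0, 0.955 and 0.976 in set 2. The 109-base exon (32274850 to 32274958), the most read, stood at 1.0, 0.98 and 0.985 in set 1 and 1.0 in all of set 2, from 3 skipping reads among 846. The junction total of Parg was 31.3, 39.9 and 27.8 CPM against 26.5, 31.8 and 31.1, with a log2 ratio of 0.13 ± 0.18 (SE; limma adjusted p = 0.923). No junction total of Parp1, Parp2, Parp3 or Parg passed limma, and 0 of these 4 had an unadjusted p under 0.05.

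**Figure D4:**
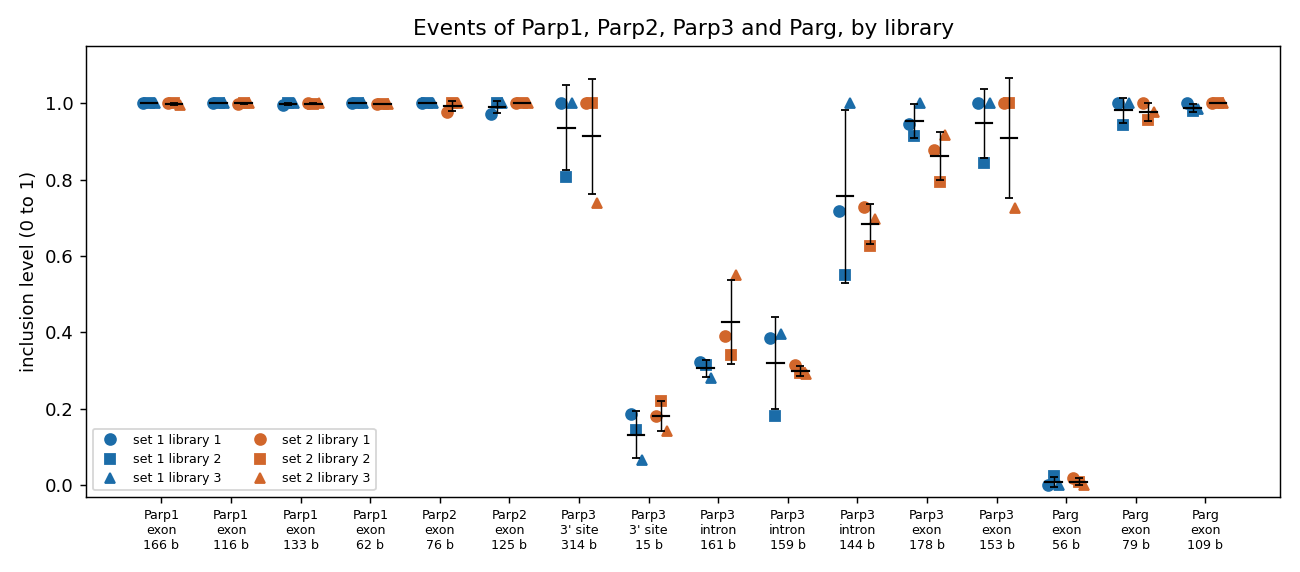
Inclusion level (0 to 1) of the 16 events of Parp1, Parp2, Parp3 and Parg, with a point for each library (set 1 blue, set 2 orange), the mean as a horizontal line and the SD as the error bar, which can pass 1; labels give the length in bases of the exon, intron or 3′ site extension. Parp1, Parp2 and 2 Parg exons lie near 1, the 56-base Parg exon near 0 and the Parp3 events range from 0.066 to 1.0; the 161-base Parp3 intron stands at 0.28 to 0.322 in set 1 and 0.34 to 0.55 in set 2.

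**Figure D5:**
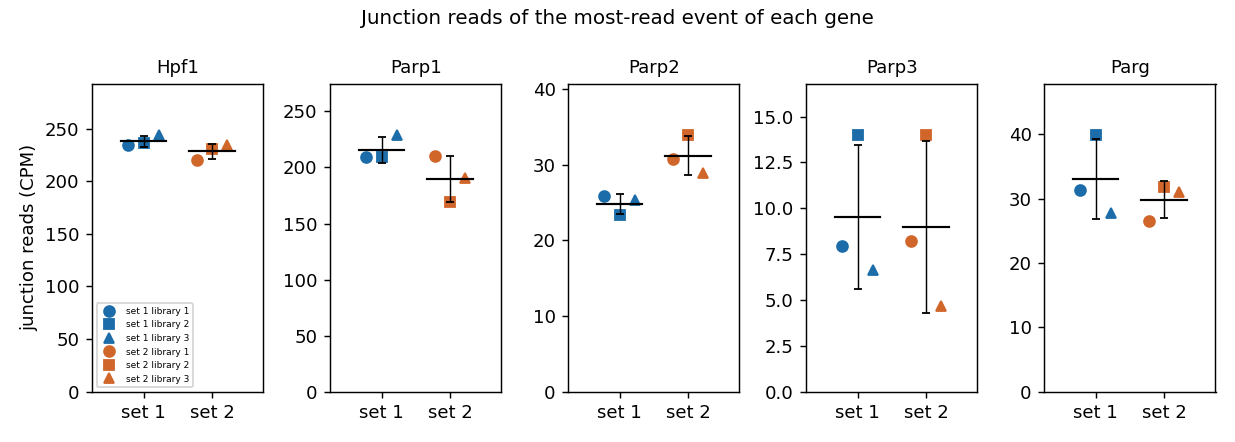
Junction reads of the most-read event of each gene in CPM (each panel has its own linear axis from 0), with a point for each library, the mean as a horizontal line and the SD as the error bar. Parp2 is the only one of the 5 genes whose libraries do not overlap, at 23.3 to 25.8 in set 1 and 28.9 to 33.9 in set 2; levels are not comparable between panels, since they are not scaled to length.

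Other genes of ADP-ribosylation and of the repair it serves were counted from a list of 42, of which 37 had events, 213 in all. In the authors' deposited table, a 3-base 3′ splice site choice of Parp11, a mono-ADP-ribosyltransferase, was called, higher in set 1. Its level was 1.0, 0.932 and 1.0 in set 1 and 0.932, 0.725 and 0.64 in set 2. The sets overlapped, and the event had a mean of 11.8 reads per library, too few to be tested here. The list had 197 events with a mean of 20 or more reads. The quasi-binomial test called none of them, with 6 at an unadjusted p under 0.05. Limma on logit levels called none either, with 2 at that p. Over all tested events, 1497 of 39419 reached that p with the quasi-binomial test and 1298 of 39409 with limma.

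Of the 209 listed events with a level in every library, 7 did not overlap between the sets, against 5.83% of all events. With a change of 0.10 or more and a mean of 20 or more reads also asked, 1 did, against 1.05% of all events. This was a 95-base exon of Huwe1, a ubiquitin ligase, at 0.589, 0.871 and 0.551 in set 1 and 0.495, 0.505 and 0.193 in set 2. Its quasi-binomial adjusted p was 0.746. The next largest were a 5′ splice site of Adprm, an enzyme that splits ADP-ribose (0.192 against 0.0983), a pair of exons of the deubiquitinase Usp7 (0.551 against 0.473) and a 5′ splice site of Parp6 (0.778 against 0.815). Each had the same quasi-binomial adjusted p of 0.746. The median size of the difference was 0.00803 over the list and 0.0083 over all events. Of 36 listed genes with a testable junction total, limma called none in either direction, with 7 at an unadjusted p under 0.05. The share of all gene totals at that p was not counted, so nothing is read from the 7.

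Exon 2 of Hpf1 between exons 1 and 4 was compared with 2717 skipped exons of other genes that had a mean of 50 or more reads and levels spread by 0.10 or more. The 3 with the most similar levels over the 6 libraries, by Pearson correlation, were a 129-base exon of Ate1, an arginyltransferase (r = 0.9875), a 24-base exon of Gnas, the stimulatory G protein alpha subunit (r = 0.9663), and a 54-base exon of the splicing regulator Mbnl1 (r = 0.9613). The Ate1 exon stood at 0.436, 0.439 and 0.465 in set 1 and 0.518, 0.557 and 0.505 in set 2. The Gnas exon stood at 0.429, 0.427 and 0.446 against 0.58, 0.599 and 0.596, and the Mbnl1 exon at 0.47, 0.484 and 0.55 against 0.581, 0.626 and 0.566. All 3 were lower in every library of set 1, like the Hpf1 exon. They were picked as the highest of 2717 and share the same 6 libraries, so these correlations describe likeness and carry no test.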

How the data were processed

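Trizol was used to extract total RNA of N2a cells, and an NEBNext Ultra kit to make libraries, per the labels' protocols. Bowtie2 2.2.3, HISAT2 2.1.0, HTSeq 0.6.0 and build mm10 are named without a role, per the submitters' processing notes; the splicing caller is not given in the sources used here, but the deposited layout is that of rMATS. For each event the authors deposited whole-number counts of inclusion and skipping junction reads, form lengths, an inclusion level (a fraction), the level difference, and a p-value with its adjusted form, per the file headers. Levels recomputed from the counts came within 0.0005 of those deposited. No per-library column was left out.

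All events whose mean count reached 20 were tested together with a moderated quasi-binomial test (R 4.3.3, limma 3.58.1): dispersion at least 1, prior fitted along the reads of the rarer form where these numbered at least 5, Benjamini-Hochberg adjustment over all kinds. A call needed an adjusted p under 0.05 and a change of 0.10 or more. Junction totals, the most-read event of each gene as log2(CPM + 1), were tested with limma and a mean-variance trend. Form lengths and depth set the precision: a library with 0 reads on a junction allows 3. Both tests were checked on simulated data. Of 50 simulated skipped exons at each size, the quasi-binomial test recovered 1 at a change of 0.1 and 2 at 0.2. It recovered 13 at 0.3 and 32 at 0.4, so a missing call says little about changes of 0.3 or less in such exons. The changed exons all had intermediate shares of inclusion reads and a fixed spread between libraries. Recovery for exons almost always included or almost always left out was not simulated. Sequences and exons came from GENCODE vM21 (GRCm38).

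Members and lists were chosen with earlier results of these data known. Named were every Hpf1 event; for partners the most-read event of each kind, that of smallest authors' p and any non-overlapping change of 0.10 or more; for the list, genes with an authors' call and the 4 largest non-overlapping changes; and the 3 exons most like Hpf1 exon 2. The remaining partner events were added afterwards. One result of the list is not reported here.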

Additional observations from a re-analysis of the deposited data

How the results depend on the processing

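No paired analysis was possible because the columns of the table carry no replicate number. Over 177 alternatives, 5 values reversed and 23 moved, by more than the spread between libraries for levels or by over 1.5 times for counts and the junction ratio. The other 149 did neither, where log2 totals were held only to their direction and test. Among the 149 are the quasi-binomial counts for the ADP-ribosylation list and for partner events, which were 0 under every setting. The number of quasi-binomial calls depends on the dispersion prior: 11 events as reported, 64 with the prior along the total count, 13 with that prior fitted where the rarer form had at least 1 read (tried after seeing the data) and 0 with limma on logit levels, which had 3 events at an adjusted p under 0.05 before any limit on size and 1298 at an unadjusted p under 0.05. Leaving out a library gave 2 to 19 calls: 19 without set 1 library 1, 7 without set 2 library 3, and 2 without set 1 library 2, set 2 library 1 or set 2 library 2. Of the 11 calls 2 were the Hpf1 exon 2 and exon 3 events, which share their skipping reads, and 0 to 2 with a library left out. Since these events chose the gene, their calls are no test of it and nothing is read from them. No partner event had an adjusted p under 0.05 under any of these settings. Member events with a change of 0.10 or more, a mean of 20 or more reads and no overlap numbered 4, against 1.05% of all events. Of these, 3 were Hpf1 events, which chose the gene, so nothing is read from the count. The number was 2 at a mean count of 50 or more and 3 to 5 with a library left out. With no length correction the Hpf1 differences were −0.06 (exon 2) and −0.074 (exon 3). In the authors' deposited table the called member events fell from 3 to 1 at a change of 0.20 or more, and those of the ADP-ribosylation list from 2 to 1 at that change and to 0 at an adjusted p under 0.01 (for the list, limits chosen after seeing the data). Leaving out a library moved the Hpf1 differences within −0.125 to −0.099 (exon 2), −0.149 to −0.114 (exon 3) and 0.32 to 0.397 (exon 4), and the difference on the exon 1 to exon 4 junction, 2.13 RPM with all libraries, within 1.82 to 2.3, with a ratio of 4.27 to 11.5. The difference of the Parp3 intron was −0.06 without set 2 library 3. The difference of Hpf1 exon 4 between exons 1 and 6 was 0.045 without set 1 library 2. Limma called 88 junction totals, and 26 to 283 with a library left out: 283 without set 1 library 1, 26 without set 1 library 2, 42 without set 1 library 3, 32 without set 2 library 2 and 43 without set 2 library 3. The log2 ratio of Parp3, 0.12, became −0.21 by the median over its events, −0.16 without set 1 library 2 and −0.23 without set 2 library 3 (−0.23 to 0.48 over the libraries left out). That of Parg, 0.13, became −0.03 by the median and −0.01 without set 1 library 2 (−0.01 to 0.24). The causes were not tested. Depth limits the exon 4 event of Hpf1 (23 reads per library) and all Parp3 events.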

Other observations

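The authors' deposited table called a skipped exon in 194 genes, and 2 or more in 24. In 6 of these, calls went in opposite directions: Hpf1, Eef1d, Pou2f1, Adamts6, Ank3 and E130307A14Rik. In Hpf1 and Eef1d the opposite calls share a junction, which is on the skipping side of 1 call and the inclusion side of another. In Hpf1 the counts differed. Set 1 library 1 had 37 skipping reads in the exon 2 call and 10 inclusion reads in the exon 4 call. How many reads were counted on both sides was not tested in either gene. In the other 4 they share none.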
